A study of Mus musculus with 6 samples.

Results

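The MAP kinase cascade and the dual-specificity phosphatases were read in sorted mouse hematopoietic stem cells through every array probe set with a single gene symbol starting with Mapk, Map2k, Map3k, Map4k or Dusp. A probe set was kept if its level was above log2 4 on at least 3 of 6 arrays. Of 157 such probe sets for 71 genes, 78 probe sets for 48 genes were kept, of 19613 kept among 45037 on the array. Marrow was taken from male mice aged 10 weeks, strain C57Bl/6 (CD45.1), and Lineage-, Sca-1+, c-Kit+ cells were sorted within the side population, the cells that exclude a DNA-binding dye. Its lower region gave the Lower-SP samples and its upper region the Upper-SP samples, with 3 arrays a group from pools of mice sorted on 3 separate days. No treatment or genetic change is given for either group, and the RNA was amplified in 2 rounds of in vitro transcription, so each array reads a pool of animals after amplification. Differences are Lower-SP minus Upper-SP in log2 units, a mean is given with its SD over 3 arrays, and each adjusted p is limma's, over all 19613 probe sets, with 0.05 as the threshold.

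MAP kinase signalling is a relay in which MAP4K and Ras proteins activate MAP3K kinases, these activate MAP2K kinases, and these phosphorylate a threonine and a tyrosine of a MAP kinase. ERK kinases mainly carry growth factor signals, while JNK and p38 kinases respond mainly to stress and cytokines. The MAP kinase phosphatases, a group within the DUSP family, remove both phosphates again, and several of their genes are switched on by the pathway they restrain. In stem cells of the bone marrow, p38 is known for its part in the response to oxidative stress, and cytokine receptors feed the ERK branch.

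The promoters of the 3 MAP kinase phosphatase genes with a raised probe set are shown because these genes moved in the same direction. Each line gives the 250 bases before the gene's start in RefSeq (GRCm38.p6), on the gene's strand, with motif matches in capitals. Dusp5 is at chr19:53528895-53529144 (plus strand), Dusp1 at chr17:26508473-26508722 (minus strand) and Dusp16 at chr6:134792629-134792878 (minus strand).
Dusp5: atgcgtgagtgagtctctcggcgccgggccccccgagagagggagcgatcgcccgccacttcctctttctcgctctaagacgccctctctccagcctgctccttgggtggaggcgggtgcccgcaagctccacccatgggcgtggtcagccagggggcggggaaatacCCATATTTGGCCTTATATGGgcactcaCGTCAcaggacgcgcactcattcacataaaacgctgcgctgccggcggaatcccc
Dusp1: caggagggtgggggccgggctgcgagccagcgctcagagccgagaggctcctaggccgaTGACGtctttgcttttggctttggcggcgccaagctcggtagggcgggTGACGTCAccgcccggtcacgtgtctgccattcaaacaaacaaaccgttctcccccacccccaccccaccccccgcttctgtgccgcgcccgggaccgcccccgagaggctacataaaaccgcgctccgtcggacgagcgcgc
Dusp16: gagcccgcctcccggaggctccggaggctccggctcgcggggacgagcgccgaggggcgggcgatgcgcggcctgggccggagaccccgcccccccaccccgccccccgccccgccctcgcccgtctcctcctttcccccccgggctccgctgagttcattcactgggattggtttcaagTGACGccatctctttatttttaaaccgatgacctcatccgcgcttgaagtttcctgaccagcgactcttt

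The motifs searched, on both strands, were the short CRE core TGACG, the full CRE TGACGTCA, which holds 2 overlapping cores, the AP-1 site TGACTCA and the CArG box, the element bound by serum response factor. Dusp5 has 2 adjacent CArG boxes, from -82 to -63 relative to the start, and a CRE core on the opposite strand from -55. Dusp1 has a full CRE from -143 and a further core from -191, and Dusp16 has a core from -70. Among 32851 RefSeq windows of the same length, 1.47% hold a CArG box, 1.55% a full CRE, 17.8% a core and 4.46% an AP-1 site. Of the 16 genes with a probe set past the threshold, 12 had a promoter entry, and 5 of these hold a core, 1 a full CRE, 1 a CArG box and 0 an AP-1 site. A gene counts if any of its windows holds the motif, and some genes have more than 1 window. These counts are of genes, while the shares above are of windows. A match describes these letters and is not a measured binding site.

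The arrays differ in ways that touch the results. Lower-SP replicate 3 correlated less with its 2 fellow arrays (r = 0.952 and 0.955 across probe sets) than these did with each other (0.982). Of the 78 member probe sets, 52 (66.7%) had Lower-SP replicate 3 farther from the mean of the other Lower-SP arrays than these lay from each other, against 61.6% of all probe sets. Upper-SP replicate 3 also stood apart from its fellow arrays (r = 0.979 and 0.967, against 0.991 between these). The median SD of member probe sets was 0.34 in Lower-SP and 0.19 in Upper-SP, against 0.28 and 0.23 over all probe sets. Neutrophil transcripts were high in Lower-SP replicates 1 and 2: the summed level of the 13 markers measured was 14.28 and 13.79 there, 11.87 in Lower-SP replicate 3 and 12.08 to 12.33 in Upper-SP, and their mean level was 7.78, 7.30 and 5.05 in Lower-SP against 4.18 to 4.98 in Upper-SP. The sums of the last 4 arrays rest mainly on Prtn3 (11.42 in Lower-SP replicate 3, 11.99 to 12.12 in Upper-SP), which was lower in Lower-SP. S100a8, a protein of mature neutrophils, read 13.19, 12.60 and 9.16 in Lower-SP against 7.62, 7.87 and 6.95 in Upper-SP, so Lower-SP replicate 3 also lay above Upper-SP. Of the 8 neutrophil markers tested 4 were higher (S100a8, S100a9, Lcn2 and Chil3) and 1 lower (Prtn3), and Elane and Ctsg were under log2 4 on every array. The summed level of the 6 stem cell markers measured (Kit, Slamf1, Procr, Mecom, Hlf and Tek), all 6 detected, was 14.07 to 14.21 in both fractions, although Kit itself was lower in Lower-SP (-0.92, adjusted p = 0.014). This sum rests mainly on Procr (13.59 to 13.84 over the arrays) and says little about the others. Plasma and B cell transcripts, with 7 of 12 markers measured under log2 4 on every array, summed to 7.51 to 9.97 in Lower-SP and 11.45 to 12.68 in Upper-SP, led by Igha. The part of these cells in the member differences was not tested. Scaling by cyclic loess moved the median difference of all genes from -0.24 to -0.12, so signs near 0 depend on the scaling.

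Members passed in both directions, and most did not pass. Of the 78 probe sets 17 were called, in 16 genes, against 28.1% of all probe sets. Of these, 10 (12.8% of the 78) were higher and 7 (8.97%) lower in Lower-SP, against 10.7% and 17.5% of all probe sets. The 7 include the Map3k5 probe set 1421340_at, which passed the filter only through the Upper-SP arrays, so its fall was fixed in advance. Read through the brightest probe set of each gene, 6 of 48 genes (12.5%) were higher and 4 (8.33%) lower, against 7.05% and 20.7% of all genes, and 27.7% in either direction. The groups did not overlap in 33 probe sets (42.3%, against 46.1% of all) and in 22 of the 48 genes (against 45.7%). Counts by role rest on 2 to 12 genes and are descriptions beside these shares. The median difference was -0.15 over the member genes and -0.24 over all genes. Cyclic loess, quantile normalization and median centring each gave 9 genes higher and 4 lower, where 9.75%, 8.88% and 8.38% of all genes were higher and 14.5%, 16.4% and 17.4% lower. The same 3 scalings gave 14, 14 and 13 probe sets higher and 6 lower. Calls lost with an array left out, given below gene by gene, stand beside a loss over the whole array. Calls among all 19613 probe sets fell from 5520 to 1666 without Upper-SP replicate 1 and to 2623 without Upper-SP replicate 2. In bulk RNA a smaller share of expressing cells and less RNA per cell cannot be told apart.

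**Figure D1:**
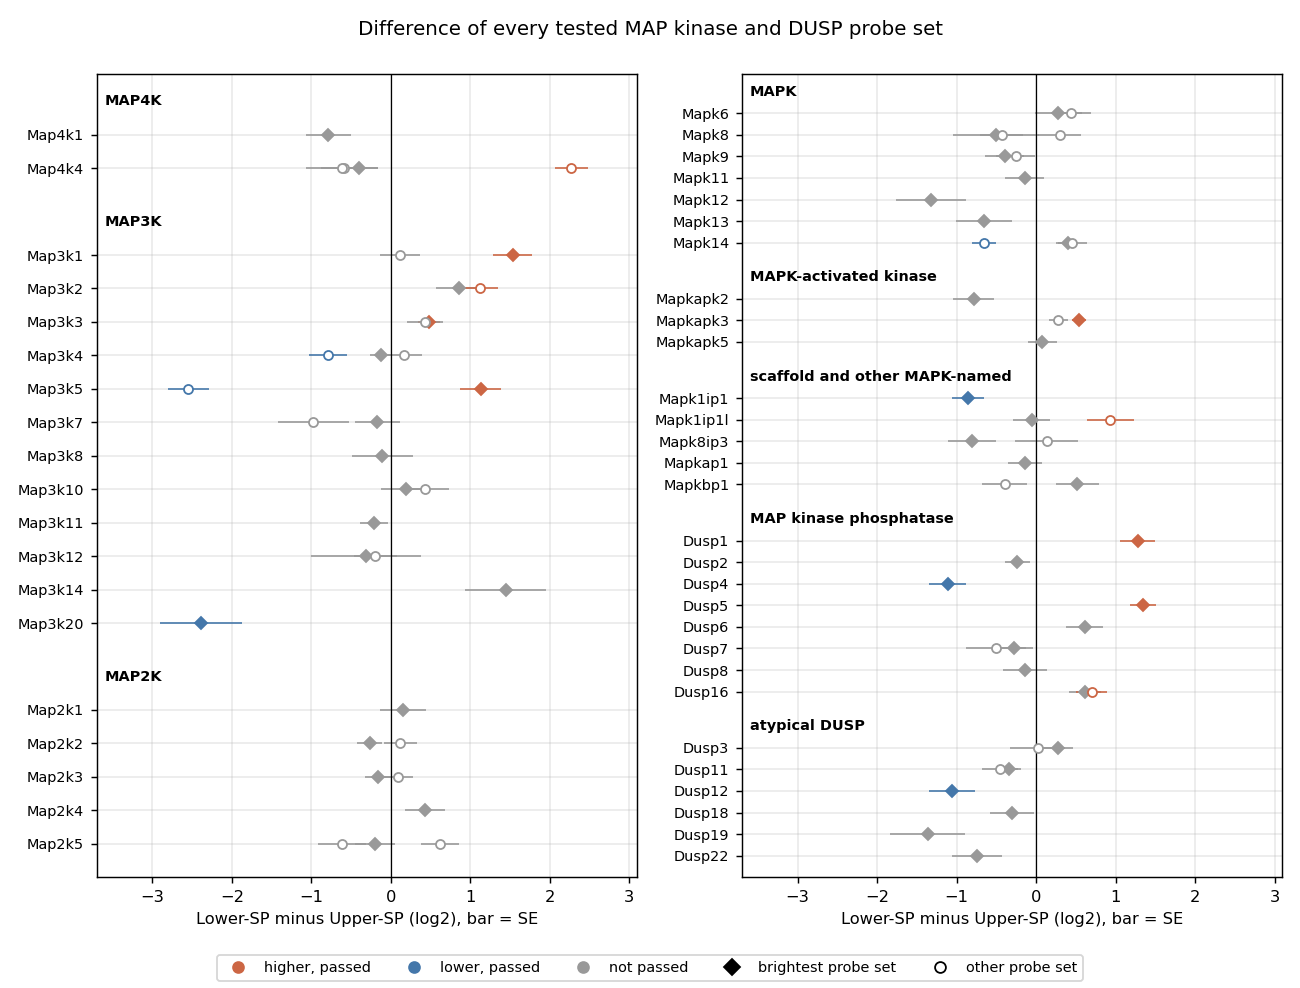
Lower-SP minus Upper-SP difference (log2, horizontal axis) of all 78 tested probe sets, 1 row per gene and grouped by role, with bars showing the SE, diamonds the brightest probe set of a gene and open circles the others. Coloured points passed the threshold: 10 higher and 7 lower, with Map3k5 the gene called in both directions and a Map4k4 probe set farthest to the right. The falling Map3k5 point was fixed by the filter.

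Of 10 MAP kinase phosphatase genes on the array 8 were tested, and at their brightest probe sets 2 were higher, 1 was lower and 5 did not pass, where 7.05% of all genes were higher and 20.7% lower. Dusp5, a nuclear phosphatase specific for ERK, read 8.85, 8.998 and 8.97 in Lower-SP and 7.71, 7.52 and 7.55 in Upper-SP. Every Lower-SP value lay at least a full log2 unit above every Upper-SP value. It rose by 1.35 (SE 0.17, 2.54-fold, adjusted p = 0.0029), and the call held in each of the 17 alternatives (adjusted p 0.0014 to 0.030). With Lower-SP replicates 1 and 2 both left out, the difference was 1.38 (adjusted p = 0.030).

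Dusp1, an immediate early phosphatase that acts on p38, JNK and ERK, read 9.04, 8.87 and 8.96 in Lower-SP against 7.76, 7.995 and 7.28 in Upper-SP. The Lower-SP arrays were nearly equal and the spread lay in Upper-SP. Dusp1 rose by 1.28 (SE 0.22, 2.43-fold, adjusted p = 0.0070). With Lower-SP replicates 1 and 2 both left out, the difference was as large, 1.28, with an adjusted p of 0.065.

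Dusp4, a nuclear phosphatase closely related to Dusp1, went the other way, with 6.86, 6.55 and 7.08 in Lower-SP against 8.05, 7.69 and 8.08 in Upper-SP. The groups did not overlap. It fell by 1.11 (SE 0.23, 2.16-fold, adjusted p = 0.012), and without Upper-SP replicate 1 the difference was -1.06 with an adjusted p of 0.069.

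Dusp16, which acts on JNK and p38, was read by 2 probe sets with like differences. The dimmer one, 1440615_at, read 8.67, 8.72 and 8.30 in Lower-SP against 7.77, 7.82 and 8.0 in Upper-SP and rose by 0.70 (SE 0.19, adjusted p = 0.031). The brighter one, at 9.79 ± 0.07 against 9.17 ± 0.38, differed by 0.62 (adjusted p = 0.058) and passed with each other scaling (adjusted p 0.022 to 0.031). Both probe sets separated the groups. The call of the dimmer one was lost without Lower-SP replicate 1 (adjusted p = 0.091) or 2 (0.10) and without Upper-SP replicate 1 (0.12) or 2 (0.098).

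The other phosphatases of the group did not pass. Dusp6, the cytoplasmic ERK phosphatase, read 8.78, 8.61 and 8.05 in Lower-SP against 7.77, 7.81 and 8.02 in Upper-SP (difference 0.61, SE 0.23, adjusted p = 0.084). Its groups touched without overlapping, at Lower-SP replicate 3 and Upper-SP replicate 3. Dusp2, an inducible nuclear phosphatase, read 9.75 ± 0.17 against 9.98 ± 0.17 (adjusted p = 0.29). Dusp7, a cytoplasmic ERK phosphatase, differed by -0.28 and -0.50 at its probe sets, and Dusp8, which acts on JNK and p38, by -0.14. Dusp9 and Dusp10 stayed under the level for testing.

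**Figure D2:**
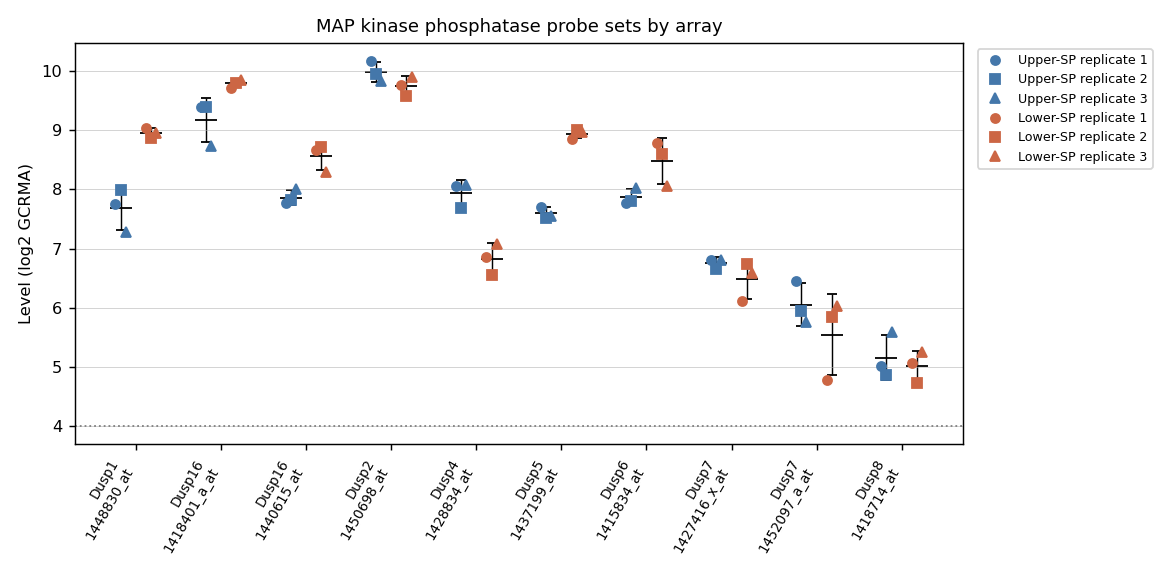
Level (log2 GCRMA, vertical axis) of each tested MAP kinase phosphatase probe set on the 3 Upper-SP (blue) and 3 Lower-SP (orange) arrays, with black bars for the mean ± SD and a dotted line at log2 4. Dusp1 and Dusp5 sit near 9 on all Lower-SP arrays and at or under 8 on all Upper-SP arrays, while Dusp4 runs the other way.

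Among the MAP3K genes, which receive the stress and cytokine signals, 12 of 15 on the array were tested. At their brightest probe sets 3 were higher (25%, against 7.05% of all genes), 1 was lower (8.33%, against 20.7%) and 8 did not pass. Their median difference was 0.04. The raised ones are the MEKK kinases Map3k1 and Map3k3 and the oxidative stress kinase Map3k5, and the lowered one is Map3k20. Map3k1, an activator of the JNK branch, read 7.49, 6.86 and 7.19 in Lower-SP against 5.65, 5.46 and 5.83 in Upper-SP at 1443540_at. All 3 Lower-SP arrays lay at least 1 log2 unit above the Upper-SP arrays. It rose by 1.53 there (SE 0.25, 2.90-fold, adjusted p = 0.0059), a call kept in each of the 17 alternatives (adjusted p 0.0036 to 0.039). Its other tested probe set, at 5.99 ± 0.34 against 5.88 ± 0.17, differed by 0.12 and did not pass.

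Map3k2, a MEKK kinase that can feed ERK5 and JNK, was higher at both tested probe sets, of which 1 passed. At 1455597_at it read 7.46, 7.37 and 7.73 against 6.49, 6.12 and 6.55 and rose by 1.13 (SE 0.23, adjusted p = 0.011; 0.052 without Upper-SP replicate 1). The brighter probe set read 8.31, 7.96 and 7.34 against 6.96, 6.80 and 7.27, a difference of 0.86 (adjusted p = 0.059) that passed with each other scaling (0.045 to 0.049) and was 0.33 with Lower-SP replicates 1 and 2 both left out. The groups did not overlap at either.

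Map3k3, the MEKK kinase known for its place upstream of ERK5 and p38, read 10.12, 10.07 and 9.95 against 9.58, 9.66 and 9.44 at 1426686_s_at. The shift was small beside a tight spread, 0.48 (SE 0.14, 1.40-fold, adjusted p = 0.036). Its other probe set differed by 0.43 without passing. With single arrays left out the adjusted p ran from 0.032 to 0.12, and the call was kept only without Lower-SP replicate 3.

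Map3k5, the kinase ASK1 that is held inactive by thioredoxin until oxidation, was called in opposite directions by its probe sets. At 1439830_at it read 7.21, 7.99 and 7.71 in Lower-SP against 6.44, 6.37 and 6.71 in Upper-SP and rose by 1.13 (SE 0.26, adjusted p = 0.018). At 1421340_at, the probe set annotated to its RefSeq mRNA, it read 2.58, 2.85 and 2.86 against 5.66, 4.82 and 5.46. There the Lower-SP arrays lay under the level for testing, and the fall is at least 2.48-fold (adjusted p = 0.0018). This probe set entered the test only through the 3 Upper-SP arrays, so it had to differ. The rise was lost without Lower-SP replicate 2 (adjusted p = 0.060), Upper-SP replicate 1 (0.080) or Upper-SP replicate 2 (0.066), while the fall, fixed by the filter, is given as a description only.

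Map3k20, also called ZAK, a kinase that senses stalled ribosomes, had the largest fall among the brightest probe sets of the member genes. It read 6.38, 5.87 and 4.18 in Lower-SP against 7.89, 7.87 and 7.84 in Upper-SP. The Upper-SP arrays were almost identical, and the Lower-SP arrays spread over more than 2 log2 units with replicate 3 lowest. It fell by 2.39 (SE 0.51, 5.24-fold, adjusted p = 0.014). Without Lower-SP replicate 3 the fall was 1.74 (as a difference, -1.74, adjusted p = 0.0038), and without Lower-SP replicates 1 and 2 together it was -3.69 (adjusted p = 0.018). The call missed the threshold without Upper-SP replicate 1 (adjusted p = 0.066) and narrowly without Upper-SP replicate 2 (0.0501). Its other 3 probe sets stayed under log2 4 on every array, so the result rests on 1435029_at alone.

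Map3k4, the MEKK kinase bound by Gadd45 proteins, read 7.25, 7.63 and 6.93 against 8.19, 8.13 and 7.86 at 1421450_a_at. There it fell by 0.79 (SE 0.24, adjusted p = 0.041), and the call ended under all 3 other scalings. With single arrays left out its adjusted p ran from 0.041 to 0.16. Its brightest probe set read 9.77 ± 0.10 against 9.90 ± 0.03, and its remaining one differed by 0.17.

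The other MAP3K genes did not pass. The largest difference among them was in Map3k14, the kinase NIK of the noncanonical NF-kappa-B pathway, at 5.06, 4.32 and 6.32 in Lower-SP against 3.96, 4.21 and 3.19 in Upper-SP (1.45, adjusted p = 0.068). All its Upper-SP values and 1 of its Lower-SP values were near log2 4. Map3k7, the kinase TAK1 downstream of TGF-beta and interleukin receptors, differed by -0.17 and -0.97. Map3k8, an activator of the ERK branch, differed by -0.11, and the mixed-lineage kinase genes Map3k10, Map3k11 and Map3k12 by -0.31 to 0.43 over their probe sets.

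Of the MAP4K genes, which act at the top of the stress branch, 2 of 3 on the array were tested. Neither passed at its brightest probe set, where 27.7% of all genes did. By limma 1, Map4k1, had an unadjusted p under 0.05. Map4k4, known from JNK signalling and cell migration, had the largest rise of any member probe set. At 1440609_at it read 8.76, 8.52 and 8.91 in Lower-SP against 6.41, 6.31 and 6.67 in Upper-SP. It rose by 2.27 (SE 0.21, 4.83-fold, adjusted p = 0.0013), and the call held in each of the 17 alternatives (adjusted p 0.00040 to 0.019). The other 3 tested probe sets of the gene lay on the opposite side, at -0.41, -0.59 and -0.61, and none passed; the one annotated to its RefSeq mRNA read 7.28 ± 0.98 against 7.89 ± 0.22. Map4k1, the hematopoietic kinase HPK1, read 7.35, 7.67 and 6.64 against 8.15, 7.96 and 7.91 (-0.79, adjusted p = 0.073). Its groups did not overlap.

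The MAP2K genes, the middle tier, had 0 calls among 9 tested probe sets of 5 genes, where 28.1% of all probe sets were called. By limma 1, of Map2k5, had an unadjusted p under 0.05. Map2k1 and Map2k2, the MEK kinases that activate ERK, differed by 0.16 (SE 0.29) and -0.27 (SE 0.16). A dimmer Map2k2 probe set differed by 0.12. Map2k3, an activator of p38, differed by -0.16 and 0.08 at its probe sets, and Map2k4, which activates JNK and p38, by 0.43 (SE 0.25). Map2k5, the activator of ERK5, differed by -0.20, -0.62 and 0.62 at its probe sets. Across the tier the brightest probe sets ran from -0.27 to 0.43, with a median of -0.16 that became 0.03 with cyclic loess, 0.01 with quantile normalization and -0.07 with median centring.

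**Figure D3:**
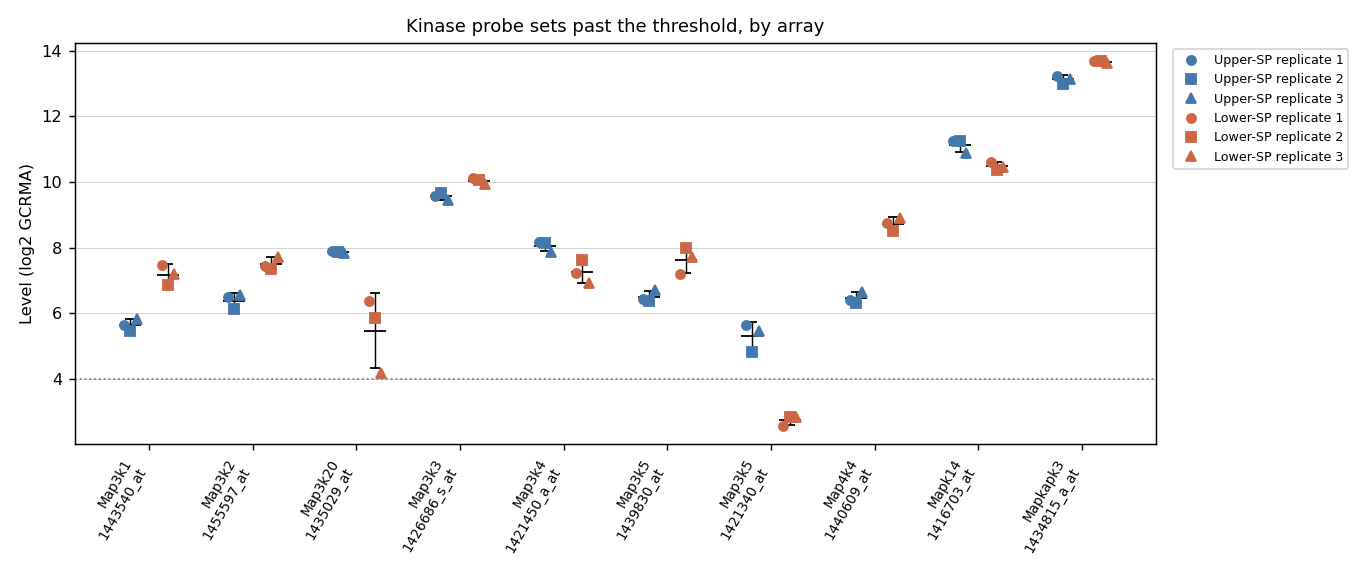
Level (log2 GCRMA, vertical axis) of the kinase probe sets that passed the threshold, on 3 Upper-SP (blue) and 3 Lower-SP (orange) arrays, with black bars for the mean ± SD and a dotted line at log2 4. Map4k4 and Map3k1 separate the fractions with tight groups, Map3k20 spreads from 4.18 to 6.38 in Lower-SP, and the 2 Map3k5 probe sets run in opposite directions.

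Of 11 MAP kinase genes on the array 7 were tested, and 0 passed at the brightest probe set, where 27.7% of all genes did (limma; 2 had an unadjusted p under 0.05, Mapk12 and Mapk14). With each other scaling 1 of the 7, Mapk14, passed as higher. Mapk14, the p38 alpha kinase, gave the only call among 13 probe sets: 1416703_at read 10.61, 10.37 and 10.46 in Lower-SP against 11.26, 11.26 and 10.87 in Upper-SP and fell by 0.65 (SE 0.15, adjusted p = 0.018). Its other tested probe sets leaned upwards, at 0.40 (adjusted p = 0.054) and 0.45 (0.12), and the first of these, 1459617_at, is the one that passed with other scalings (adjusted p 0.020 to 0.034). All 3 probe sets separated the groups, so the gene's direction depended on the probe set read. The fall was lost without Lower-SP replicate 2 (adjusted p = 0.065), Upper-SP replicate 1 (0.088) or Upper-SP replicate 2 (0.070).

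The other p38 genes leaned towards Upper-SP without passing. Mapk12, p38 gamma, read 6.38, 7.27 and 7.86 in Lower-SP against 8.86, 8.87 and 7.75 in Upper-SP (-1.32, SE 0.44, adjusted p = 0.058). Its groups overlapped through Upper-SP replicate 3. Mapk13, p38 delta, differed by -0.66 (adjusted p = 0.20) and Mapk11, p38 beta, lay near log2 4 in both fractions. The JNK genes Mapk8 and Mapk9 differed by -0.50 and -0.39 at their brightest probe sets (SE 0.54 and 0.24), and Mapk6, the atypical kinase ERK3, by 0.28 (SE 0.30). Dimmer tested probe sets differed by -0.43 and 0.30 for Mapk8, -0.26 for Mapk9 and 0.44 for Mapk6, none passing.

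Of the kinases activated by MAP kinases, Mapkapk3, a p38 substrate, rose. It read 13.68, 13.68 and 13.64 in Lower-SP against 13.24, 12.99 and 13.15 in Upper-SP, a difference of 0.54 (SE 0.09, 1.45-fold, adjusted p = 0.0065). With Lower-SP replicates 1 and 2 both left out, the difference was 0.51 (adjusted p = 0.075). Its other probe set, 10.48 ± 0.05 against 10.20 ± 0.08, differed by 0.28 (adjusted p = 0.12) and passed with cyclic loess (0.024) and quantile normalization (0.030). Mapkapk2, its close relative and also a p38 substrate, lay on the other side at 7.49 ± 0.08 against 8.28 ± 0.46 (-0.79, adjusted p = 0.054). The groups did not overlap for either gene. Mapkapk5, a partner of ERK3, differed by 0.08.

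Scaffolds and other genes carrying a MAPK name had 1 lower and 0 higher among 5 tested at the brightest probe set. The lower share, 20%, lay near the 20.7% of all genes. Mapk1ip1 fell by 0.86, from 8.80, 8.97 and 8.63 in Upper-SP to 7.74, 7.82 and 8.26 in Lower-SP (SE 0.21, adjusted p = 0.020), a call lost without either of Lower-SP replicates 1 and 2 or Upper-SP replicates 1 and 2 (adjusted p 0.062 to 0.086). Mapk1ip1l rose by 0.93 at its dimmer probe set (8.27, 7.54 and 7.74 against 7.02, 6.45 and 7.27, adjusted p = 0.049) and differed by -0.05 at its brighter one. That call was kept without Upper-SP replicate 3 (adjusted p = 0.042) and lost without each other array (0.057 to 0.15). Mapk8ip3, a JNK scaffold and motor adaptor, differed by -0.81 (adjusted p = 0.085) and by 0.13 at its dimmer tested probe set. Mapkap1, the mTORC2 subunit Sin1, differed by -0.14, and Mapkbp1, a JNK-binding protein, by 0.52 and -0.40.

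Atypical DUSPs are small phosphatases that lack the MAP kinase binding domain, and several act on other substrates. Of 14 genes on the array 6 were tested, with 1 lower (16.7%, against 20.7% of all genes) and 0 higher (median -0.54). Dusp12, a zinc-binding phosphatase, read 6.90, 6.10 and 7.14 in Lower-SP against 7.79, 7.70 and 7.80 in Upper-SP and fell by 1.06 (SE 0.29, 2.08-fold, adjusted p = 0.031). Without Lower-SP replicate 3 its adjusted p was 0.014, and without any other single array the call was lost (0.058 to 0.12). Dusp19 read 4.32, 6.05 and 4.25 against 6.43, 6.24 and 6.05 (-1.37, adjusted p = 0.064), with Lower-SP replicate 2 next to the Upper-SP values. Dusp11, an RNA triphosphatase, differed by -0.34 and -0.46, Dusp18 by -0.30, Dusp22 by -0.75 and Dusp3 by 0.27 and 0.02, none passing.

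The filter left 79 probe sets and 23 genes untested. These genes are Map2k6, Map3k6, Map3k9, Map3k21, Map4k5, Mapk4, Mapk7, Mapk10, Mapk15, Mapk8ip1, Mapk8ip2, Map3k7cl, Map2k3os, Dusp9, Dusp10, Dusp13, Dusp14, Dusp15, Dusp21, Dusp23, Dusp26, Dusp27 and Dusp28. Just inside the filter, with 3 arrays above log2 4, lay the falling Map3k5 probe set given above. Just outside, with 2, lay 4 probe sets: Map2k4 at 1426233_at (5.25, 5.27 and 3.996 in Lower-SP, 3.52, 3.35 and 2.62 in Upper-SP), Map3k6 (3.98 to 4.70 against 3.60 to 3.79), Map3k12 at 1456565_s_at (3.72 to 3.86 against 3.86 to 4.26) and Mapk7 (3.73 to 3.89 against 3.89 to 4.39).

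A gene's probe sets often gave different answers. Among the 24 member genes read by several tested probe sets, 9 (37.5%) had some called and some not, against 44% of all such genes, and 1 (Map3k5, 4.17%) was called in both directions, against 3.51%. The falling call of Map3k5 was fixed by the filter, so its place in this count is a description only. These counts are for the values as deposited. With each other scaling Mapk14 was also called in both directions, lower at 1416703_at and higher at 1459617_at. The signs matched in 13 of 24 (54.2%, against 52.1% of all). The gap between the most and the least raised probe set of a gene had a median of 0.33 over the members and 0.73 over all genes. It was widest for Map3k5 (3.68) and Map4k4 (2.88), and narrow for Map3k3 (0.06), Dusp16 (0.08) and Map3k2 (0.27). Of 17 member probe sets annotated to a RefSeq mRNA 1 was higher and 2 were lower, among them the Map3k5 fall fixed by the filter. Of the 61 others 9 were higher and 5 lower. Over all probe sets with a single symbol, 97 of 2687 RefSeq ones were higher and 709 lower, and 1329 of 13367 others were higher and 2237 lower. The part of the probe set design in these differences was not tested.

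Other genes of the pathway, from 5 lists, changed in both directions. Of 81 tested, 10 were higher (12.3%) and 15 lower (18.5%) at the brightest probe set, against 7.05% and 20.7% of all genes. With cyclic loess 15 were higher (18.5%) and 12 lower (14.8%), against 9.75% and 14.5% of all genes. The median of the 81 genes was -0.06 (0.09 with cyclic loess).

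At the entry of the cascade, of 19 Ras and Raf genes 4 were lower (21.1%, near the 20.7% of all genes) and 0 higher (against 7.05%). By limma 2 had a positive difference with an unadjusted p under 0.05. With each other scaling 1 was higher and 3 or 4 lower. Nras, a Ras GTPase, fell by 1.02 (10.37 ± 0.13 against 11.39 ± 0.11, adjusted p = 0.0031), and its other probe sets, at -0.55 and -0.03, did not pass. Rras, a relative of Ras, fell by 0.94 and Ptpn11, the phosphatase SHP2 that couples receptors to Ras, by 0.73, with another probe set of Ptpn11 at 1.20 (SE 0.75) not passing. Rasgrp2, an exchange factor for Rap, fell by 0.58, a call that was lost with cyclic loess. Nras held in each alternative. Without Upper-SP replicate 1 the adjusted p was 0.094 for Rras, 0.053 for Ptpn11 and 0.066 for Rasgrp2, without Upper-SP replicate 2 it was 0.057 for Rras and 0.069 for Rasgrp2, and without Lower-SP replicate 2 it was 0.063 for Rasgrp2.

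Brakes on Ras and ERK had 4 of 12 tested genes higher and 3 lower (33.3% and 25%, against 7.05% and 20.7% of all genes). Spred1, which brings the Ras GAP neurofibromin to the membrane, read 8.16, 7.56 and 7.61 in Lower-SP against 6.09, 5.99 and 5.82 in Upper-SP and rose by 1.81 (SE 0.24, adjusted p = 0.0035), while its other 3 probe sets, at -0.02 to 0.55, did not pass. Rasa2, a Ras GAP, rose by 1.67 and by 1.34 at its probe sets, and Errfi1, an inhibitor of the EGF receptor, by 1.54 (11.14 ± 0.60 against 9.60 ± 0.09, adjusted p = 0.0078). Spry2, a feedback inhibitor that ERK signalling itself switches on, fell by 1.43 (5.22, 5.85 and 6.42 against 6.93, 7.23 and 7.63, adjusted p = 0.021). Spred1, Rasa2 and Errfi1 passed at their brightest probe sets with each array left out. Spry2 passed only without Lower-SP replicate 3 (adjusted p 0.0077, otherwise 0.052 to 0.066).

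Of 19 genes at the entry of the stress branch 3 were higher and 2 lower. Among all genes 7.05% were higher and 20.7% lower. Gadd45g, a stress protein that binds Map3k4, rose by 1.14 (7.17 ± 0.36 against 6.03 ± 0.23, adjusted p = 0.018), the TAK1 partner Tab3 by 0.97 and the kinase Taok3 by 0.80, with 1.16 (passing) and -0.12 (not passing) at other probe sets. Rac2, a small GTPase of blood cells, fell by 0.88 and by 0.87 at its 2 probe sets. The calls at the brightest probe sets were lost without Upper-SP replicate 1 (adjusted p = 0.082, 0.065, 0.13 and 0.11 for Gadd45g, Tab3, Taok3 and Rac2). Without Upper-SP replicate 2 they were lost as well (0.069, 0.077, 0.11 and 0.089). They were also lost without Lower-SP replicate 1 (0.051, 0.054, 0.075 and 0.055), and for Taok3 and Rac2 without Lower-SP replicate 2 (0.071 and 0.082) and for Taok3 without Lower-SP replicate 3 (0.067). Of 4 downstream kinases tested 0 were called, where 27.7% of all genes were. By limma 1 of them had an unadjusted p under 0.05.

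Of 27 transcription factors and targets at the end of the pathway 3 were higher and 6 lower. These shares, 11.1% and 22.2%, stand against 7.05% and 20.7% of all genes. Mef2a, a factor phosphorylated by p38 and ERK5, rose by 2.37 (7.47 ± 0.20 against 5.10 ± 0.22, adjusted p = 0.0016) and by 0.95 at another probe set, with 0.91 and 0.02 at 2 more that did not pass. The stress factor Atf3 rose by 1.11. Fosl2, a subunit of AP-1, fell by 1.28 (10.70, 10.75 and 10.81 against 11.996, 11.96 and 12.15, adjusted p = 0.0011), with a dimmer probe set at 0.59 (not passing), and Etv5, an ETS factor downstream of ERK, fell by 1.21 near the level for testing. Mef2a, Fosl2 and Etv5 passed at their brightest probe sets with each array left out. Atf3 was lost without Lower-SP replicate 1 (adjusted p = 0.077), Upper-SP replicate 1 (0.10) or Upper-SP replicate 3 (0.064).

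**Figure D4:**
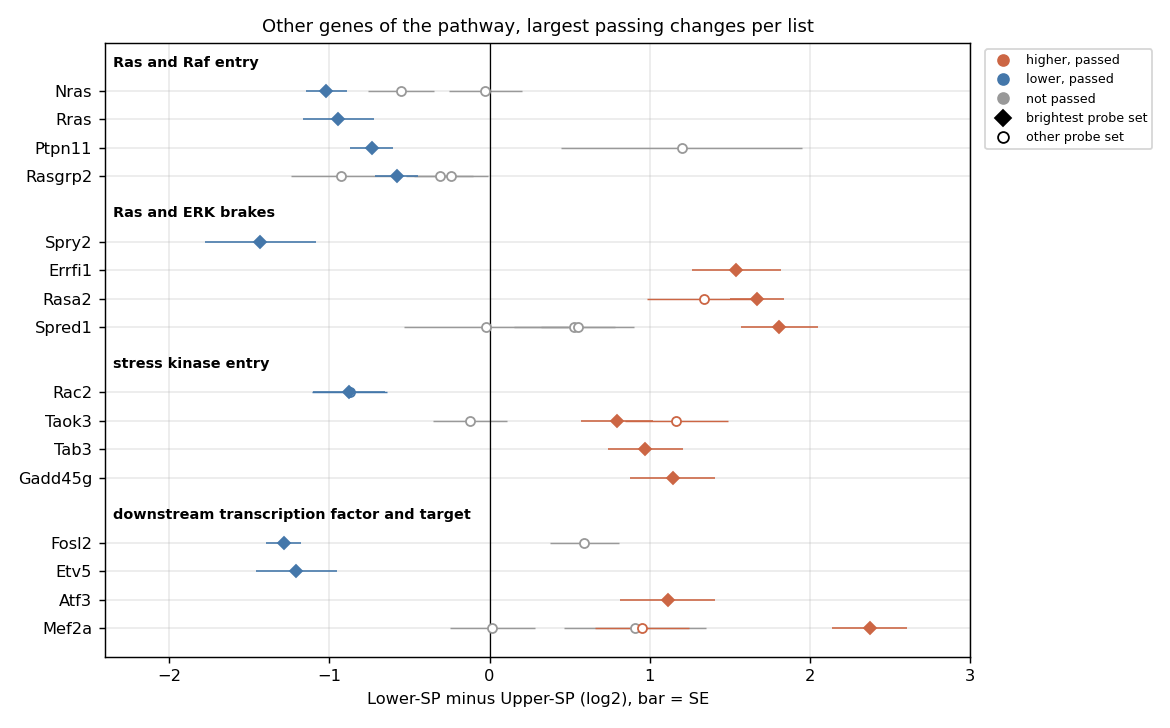
Lower-SP minus Upper-SP difference (log2, horizontal axis) of the passing genes with the largest change in 4 lists of other pathway genes, with bars showing the SE, diamonds the brightest probe set and open circles the others. The 4 Ras and Raf entry genes lie left of 0 at their brightest probe sets, and Mef2a lies farthest to the right at 2.37. The 4 Ras and Raf genes are 21.1% of the 19 tested, where 20.7% of all genes were lower.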

How the data were processed

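Levels are the deposited log2 values for 45101 probe sets on 6 arrays, summarized by the authors with GCRMA (GCOS 1.0 is also named), per the submitters' processing notes; parameters and a genome build are not given in the sources used here. Arrays have no read depth, and their number limits the precision. Groups were taken from the sample titles. After 64 control probe sets were left out, probe sets above log2 4 on at least 3 arrays went into limma 3.58.1 under R 4.3.3 (lmFit and a trended eBayes; 4 residual and 3.80 prior degrees of freedom; two-sided tests), with Benjamini-Hochberg adjustment over 19613 probe sets. A gene was counted through its brightest tested probe set. All 157 member probe sets matched a current gene record by Entrez ID, and 11 of 81 listed family names were not analysed here. Member genes with a probe set past the threshold are named with array values. The other tested MAP kinases and phosphatases are named with array values or, for some, only a mean, a difference or a level. Of other pathway genes, up to 4 passing per list with the largest change are named. Other member genes are named so that each is accounted for, and the values printed for Map4k1, Map3k14, Mapkapk2 and Dusp19 were chosen after they were seen. Members and lists were chosen with earlier results of these data known. Cell type marker lists were neutrophil, plasma and B cell, T and NK cell, erythroid, and stem cell gate genes. The neutrophil list had 4 higher and 1 lower gene, the stem cell list 0 and 1 (Kit), the plasma and B cell list 0 and 1 (Igha), the T and NK cell list 0 and 1 (Nkg7) and the erythroid list 0 and 0 of 1 tested. Alternatives were the filter, 3 other scalings, the variance model, a floor at log2 4, probe sets of type _x or _s left out, the mean of a gene's probe sets, a replicate block and arrays left out. The fit was tested on simulated data.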

Additional observations from a re-analysis of the deposited data

How the results depend on the processing

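Counts of calls are given here as higher and lower. Without the filter the member probe sets had 6 and 2, the member genes 4 and 1, and the other pathway genes 7 and 9, with fewer calls among all 45037 probe sets (2931). Leaving out both Lower-SP replicates 1 and 2 leaves 1 Lower-SP array, assumed to vary like the rest: member probe sets then had 6 and 8 and other pathway genes 5 and 5. With 1 array left out, member probe sets had 5 to 13 higher and 1 to 10 lower, member genes 4 to 9 and 0 to 7, and other pathway genes 4 to 14 and 5 to 15. The lowest counts came with Upper-SP replicate 1 left out (member genes higher equally with Upper-SP replicate 2 out), where 0 member genes were lower by limma and 4 had a negative difference with an unadjusted p under 0.05. The lowest shares of all probe sets and of all genes came with the same array left out. Of the 17 called member probe sets, leaving out Upper-SP replicate 1 kept 6, Upper-SP replicate 2 kept 8, Lower-SP replicate 2 kept 10, Lower-SP replicate 1 kept 11, and replicate 3 of either group kept 15. Calls among all 19613 probe sets, 5520 with every array, numbered 1666, 2623, 3114 and 3694 in that order. They numbered 6397 without Lower-SP replicate 3 and 5778 without Upper-SP replicate 3. Direction was kept by all of those measured in each alternative, and 16 of 17 passed with each other scaling. Map4k4 at 1440609_at, Dusp5 and Map3k1 at 1443540_at passed in each of the 17 alternatives.

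The replicate numbers did not pair the arrays: deviations of same-numbered arrays from their group means correlated at -0.05, -0.03 and -0.02. With the replicate number as a block, member probe sets had 7 higher and 6 lower, and 12 of the 17 calls were kept. Values near log2 4 give only bounds.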

Other observations

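These genes were chosen after their values were seen. The immediate early genes Egr1, Fos and Jun, common readouts of the cascade, differed by -0.03 (SE 0.16), -0.02 (SE 0.34) and 0.24 (SE 0.23) at their brightest probe sets and did not pass, in the same arrays in which Dusp1, Dusp5 and Atf3 were higher. Junb, read at 6.99, 6.99 and 6.68 in Lower-SP and 8.06, 7.58 and 7.78 in Upper-SP, fell by 0.92 (adjusted p = 0.020 by limma), and Ier2, another immediate early gene, fell by 0.77 (adjusted p = 0.012 by limma).

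Braf, the kinase that links Ras to MEK, was higher at 3 of its 5 tested probe sets, by 2.14, 2.07 and 1.22, while its brightest one differed by 0.46 and another by 0.53 without passing. Araf, its relative, had a dimmer probe set at 6.36 ± 0.39 against 8.32 ± 0.26 that fell by 1.96. Ppm1a, a phosphatase that acts on stress kinases, and Nlk, a MAP kinase relative, were each called in both directions by their dimmer probe sets, Ppm1a at -1.09 and 1.79 and Nlk at -1.11 and 0.90.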
